A study of Mus musculus with 24 samples.

Results

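The cluster of miR-199 and miR-214 was followed through 24 small RNA libraries of subcutaneous adipose tissue from mice. Its members were taken by name as mmu-miR-199a-5p, mmu-miR-199a-3p, mmu-miR-199b-5p, mmu-miR-214-3p and mmu-miR-214-5p (written without the species prefix from here on), 5 of the 1907 mature microRNA (miRNA) names in the deposited count table. All 5 passed the filter on low counts, which kept 558 names. The tissue was taken after 1 day, 1 week or 3 weeks of a control or a high-fat diet, with 4 libraries in each of the 6 groups. Whether each library is a separate animal is unstated, and the p-values reflect library-to-library spread alone, possibly technical in origin. No strain, sex, age or diet composition is given in the sources used here.

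MiRNAs are cut from hairpin precursors, and each hairpin can yield a 5p and a 3p strand, its arms. A mature arm pairs with messenger RNAs mainly through its seed, bases 2 to 8. The hairpins Mir199a-2 and Mir214 lie in Dnm3os, a long noncoding RNA that is transcribed in mesenchyme, where TWIST1 is known to drive it. Both miRNAs are known from fibroblasts, from skeletal development and from tissue fibrosis. In a bulk library, fewer cells of a type and less of the miRNA per cell cannot be told apart, and a fibroblast origin could not be checked directly.

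The sequences show which names the count table could separate and which it could not (RefSeq, build GRCm38.p6; 4 of the 5 members matched an entry). The mature arms are given 5′ to 3′ with the seed in capitals.
miR-199a-5p: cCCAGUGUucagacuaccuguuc
miR-199a-3p: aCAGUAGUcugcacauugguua
miR-199b-3p: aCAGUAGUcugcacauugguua
miR-214-5p: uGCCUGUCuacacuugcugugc
miR-214-3p: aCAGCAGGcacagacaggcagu
The 4 arms of the members printed here have 4 different seeds, while miR-199a-3p and miR-199b-3p are identical over all 22 bases. Reads of these 2 names therefore cannot be separated by the mature sequence.

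The hairpins are shown to place the arms, with the listed mature arms in capitals.
Mir199a-2: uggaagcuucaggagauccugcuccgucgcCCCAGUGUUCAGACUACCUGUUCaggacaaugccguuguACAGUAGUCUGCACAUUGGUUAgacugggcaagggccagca
Mir214: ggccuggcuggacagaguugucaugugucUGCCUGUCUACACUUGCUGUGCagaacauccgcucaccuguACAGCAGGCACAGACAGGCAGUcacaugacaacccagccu
Mir199b: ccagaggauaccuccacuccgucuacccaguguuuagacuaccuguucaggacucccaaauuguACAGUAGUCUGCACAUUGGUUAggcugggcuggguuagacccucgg
Mir199a-1: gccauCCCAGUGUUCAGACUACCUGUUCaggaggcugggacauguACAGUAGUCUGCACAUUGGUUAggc
Mir199a-2 (chr1:162217814-162217923, plus strand) and Mir214 (chr1:162223368-162223477, plus strand) overlap exons of Dnm3os and lie 5444 bases apart, opposite an intron of Dnm3. Mir199a-1 (chr9:21496495-21496564, minus strand) carries the same 2 mature arms as Mir199a-2 and lies opposite an intron of Dnm2. Mir199b (chr2:32318460-32318569, plus strand) lies opposite an intron of Dnm1. Dnm1, Dnm2 and Dnm3 encode dynamins, the enzymes that pinch off membrane vesicles. Over 23 bases, the stretch of the Mir199b hairpin closest to miR-199a-5p differs from it by 1 substitution, C10U, with positions counted from 1 at the 5′ end of miR-199a-5p.

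The Dnm3os promoter is printed because both of its hairpins would be read from this start (chr1:162217373-162217672, plus strand, 250 bases before to 50 after the start).
Dnm3os promoter: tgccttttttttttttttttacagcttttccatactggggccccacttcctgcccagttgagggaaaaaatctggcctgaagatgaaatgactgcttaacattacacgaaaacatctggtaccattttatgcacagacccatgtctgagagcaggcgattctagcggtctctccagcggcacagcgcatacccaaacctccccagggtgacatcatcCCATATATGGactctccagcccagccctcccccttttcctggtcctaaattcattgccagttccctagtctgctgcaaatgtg
The capitals mark CCATATATGG, which reads the same on both strands and begins 33 bases before the start. It has the form of the CArG box, the element known to bind serum response factor. These letters were looked for after the sequence had been seen. Exactly these letters occurred in 0.0761% of 32851 promoter windows of the same length, and any CArG box in 1.63%. The E-box letters CANNTG, the form known to be bound by TWIST1, were present 3 times here and at least once in 72.3% of the windows. These matches describe the letters and are not shown to be bound.

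The arms differed widely in level. Levels are CPM, counts scaled by library size with edgeR's trimmed mean of M-values (TMM), and they carry no length scaling, since the printed arms are 22 or 23 bases long. MiR-199a-3p, reported to target Mtor and Met, was the most abundant, at 13327 ± 3493 CPM (SD over 24 libraries), rank 15 of 558. MiR-199b-5p followed at 978 ± 233 CPM, rank 73. The mature strands of Mir214 came next, miR-214-3p at 658 ± 182 CPM (rank 89) and miR-214-5p at 541 ± 140 CPM (rank 101). MiR-199a-5p, reported to repress caveolin-1 in fibroblasts, was lowest, at 29.5 ± 7.87 CPM (rank 282). The order held in all 24 libraries except between the arms of Mir214, where miR-214-3p had more counts in 20 of 24. Read counts of different miRNAs depend on adapter ligation and on the counting as well as on abundance.

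**Figure D1:**
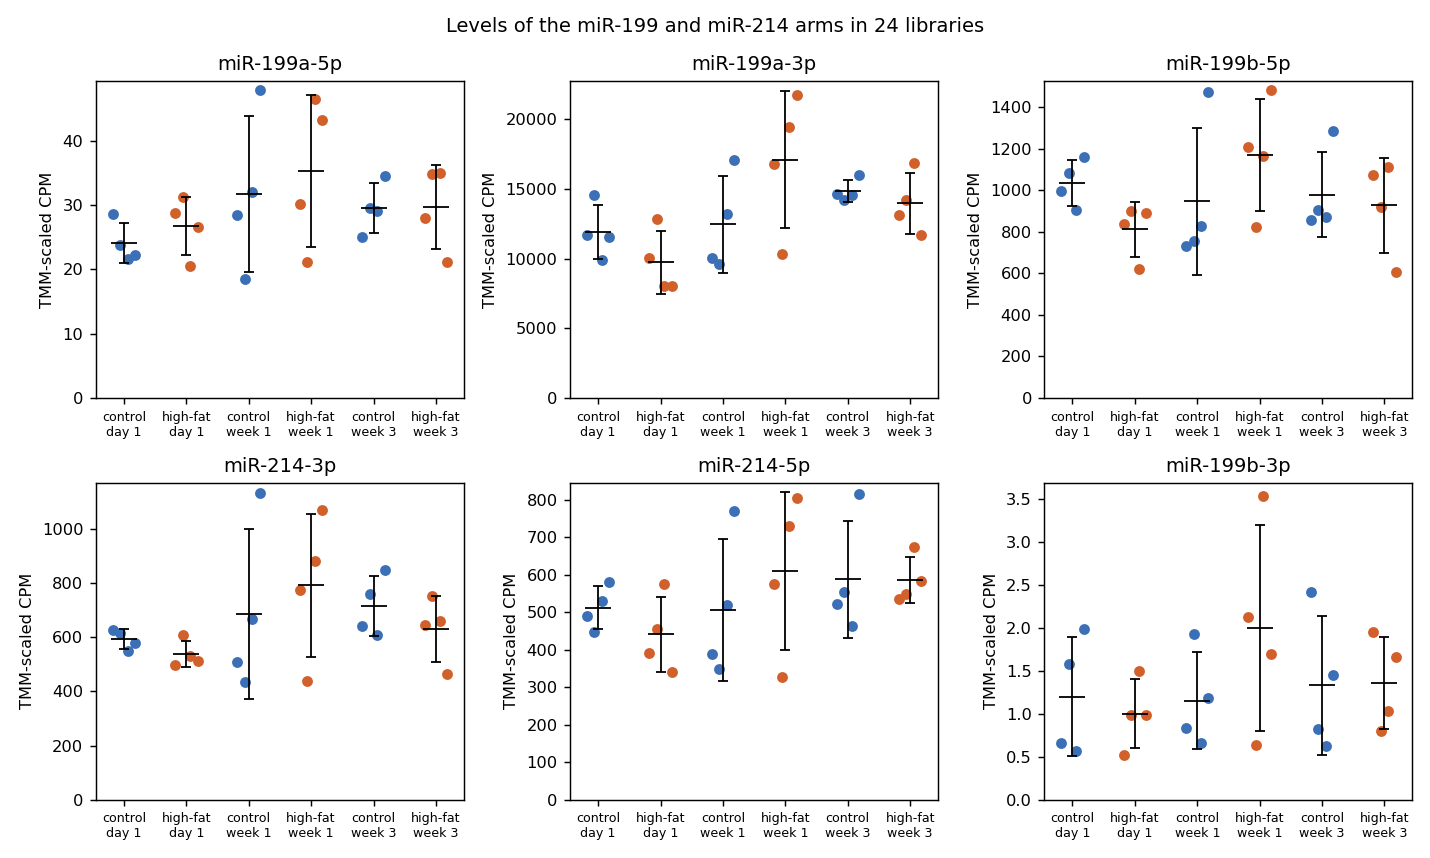
TMM-scaled CPM of the 5 arms and of miR-199b-3p in each library, by diet and time; points are libraries (blue control, orange high-fat), and black bars are the group mean ± SD of 4 libraries, on axes from 0. At each time the diets overlap in each panel except miR-199b-5p at day 1, and for miR-199a-3p the spread is widest at week 1.

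The strands of the 2 hairpin types were counted in very different proportions. MiR-199a-5p made up 0.226% of the counts of both miR-199a arms (exact binomial 95% interval 0.219% to 0.232%; 4480 of 1986587 counts over all libraries). The share ran from 0.164% in control day 1 replicate 2 (interval 0.140% to 0.190%) to 0.330% in high-fat day 1 replicate 4 (0.248% to 0.431%). At the median library the 3p arm had 463 times the counts of the 5p arm. In contrast, miR-214-3p made up 55.3% of the counts of the Mir214 arms (interval 55.1% to 55.5%), from 44.2% in high-fat week 3 replicate 4 to 60.1% in high-fat day 1 replicate 4. These intervals cover counting error only.

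The name miR-199b-3p, which has the sequence of miR-199a-3p, held only 178 of the 1982285 counts given to either name, or 0.00898% (interval 0.00771% to 0.0104%), with 2 to 19 counts per library. The count named miR-199a-3p thus may hold reads of 3 hairpins, and its share from Dnm3os is unknown. MiR-199b-5p had 32.4 times the counts of miR-199a-5p at the median library, although the Mir199b stretch differs from miR-199a-5p by a single base. The assignment of reads with several genomic matches is not given in the sources used here, and the part of the counting in these proportions was not tested.

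Averaged over the 3 times, none of the 5 arms differed detectably between the high-fat and control libraries. This mean joins day 1 estimates that lay below 0 for 4 arms with week 1 estimates that lay above 0 for all 5. The log2 fold changes, high-fat against control, were 0.03 ± 0.12 (SE; 95% interval −0.23 to 0.28) for miR-199a-3p and 0.10 ± 0.15 (−0.21 to 0.41) for miR-199a-5p. For miR-199b-5p the value was −0.04 ± 0.13 (−0.32 to 0.24). The Mir214 arms had −0.04 ± 0.15 (−0.34 to 0.26) for 3p and 0.02 ± 0.15 (−0.29 to 0.32) for 5p. The widest of these intervals reached 0.41 on the log2 scale, and each adjusted p was 0.993 (edgeR quasi-likelihood test over 558 miRNAs). None of the 5 passed, where 0% of all tested passed in edgeR, DESeq2 and limma-voom, and 3.23% had an unadjusted p under 0.05 in edgeR (18 miRNAs). A joint edgeR test for a diet-by-time difference gave adjusted p of 0.567 for miR-199a-3p and 0.616 to 0.986 for the other arms, with 0% of the 558 called and 41 at an unadjusted p under 0.05.

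At day 1, 4 of the 5 arms had estimates below 0 on the high-fat diet, and none passed. MiR-199b-5p had 996, 1085, 903 and 1159 CPM in control replicates 1 to 4 and 839, 902, 619 and 888 CPM in high-fat replicates 1 to 4. All high-fat values lay below all control values, but the gap was that between 902.2 and 902.6 CPM. Such separation was found for 1.25% of the 558 miRNAs with the high-fat side lower (7) and for 0.538% with it higher (3). The log2 fold change was −0.35 ± 0.23 (SE; edgeR adjusted p 0.982). MiR-199a-3p had 11701, 14548.5, 9876 and 11553 CPM in control replicates 1 to 4 against 10017, 12827, 8032 and 8037 CPM on the high-fat diet, with a fold change of −0.29 ± 0.21. Its ranges overlapped, with 2 high-fat libraries below every control library. The other estimates were −0.14 ± 0.25 for miR-214-3p, −0.22 ± 0.26 for miR-214-5p and 0.15 ± 0.26 for miR-199a-5p. Leaving out 1 library kept every sign, but miR-214-5p had −0.08 without high-fat replicate 4, miR-199a-3p −0.14 without control replicate 2, miR-214-3p −0.08 without control replicate 1, and miR-199b-5p and miR-199a-5p −0.22 and 0.28 without high-fat replicate 3. Of all 558 miRNAs 0% passed in edgeR, and 17 (3.05%) had an unadjusted p under 0.05, while DESeq2 and limma-voom called 0. The median over the 5 arms was −0.22, beside −0.01 over all tested.

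At week 1, all 5 arms had estimates above 0 on the high-fat diet, and miR-199a-3p was more spread between libraries than at the other times. MiR-199a-3p had 10024, 9572 and 13160 CPM in control replicates 1 to 3 and 17049 CPM in control replicate 4. On the high-fat diet it had 16767, 10360, 19440 and 21743 CPM in replicates 1 to 4. High-fat replicates 3 and 4 exceeded every control library, and high-fat replicate 2 lay among the controls. The log2 fold change was 0.46 ± 0.21 (SE; 95% interval 0.02 to 0.89), with an unadjusted p of 0.0423 and an adjusted p of 0.322 in edgeR.

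The other arms overlapped more between the diets, with no high-fat library of miR-214-3p or miR-199a-5p above every control and 1 each of miR-199b-5p and miR-214-5p. MiR-214-3p had 507, 436, 665 and 1131 CPM in control replicates 1 to 4 and 775, 438, 882 and 1067 CPM in high-fat replicates 1 to 4. MiR-199b-5p had 731, 755.5, 826 and 1473 CPM against 1207, 823, 1163 and 1481 CPM. MiR-199a-5p had 28.5, 18.5, 32.0 and 47.8 CPM against 30.2, 21.1, 46.5 and 43.2 CPM. No arm separated the diets, as 0.896% of the 558 miRNAs did with the high-fat side higher and 1.97% with it lower. In all 5 arms control replicate 4 was the highest control and high-fat replicate 2 the lowest high-fat library. The estimates were 0.21 ± 0.25 for miR-214-3p, 0.27 ± 0.26 for miR-214-5p, 0.30 ± 0.23 for miR-199b-5p and 0.14 ± 0.26 for miR-199a-5p (SE), with adjusted p of 0.540 to 0.817 in edgeR. The median of 0.27 stood beside −0.02 over all tested.

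Of all 558 miRNAs 0% passed at week 1 in edgeR and 0 in DESeq2, with 79 (14.2%) at an unadjusted p under 0.05, while limma-voom called 19, none of them a member. The week 1 values depended on single libraries in both directions. Without high-fat replicate 4, miR-214-3p had 0.03, miR-214-5p 0.10, miR-199b-5p 0.19 and miR-199a-3p 0.32, and without control replicate 2 miR-199a-5p had 0.0099. Without control replicate 4, the estimates were 0.68 for miR-199a-3p (adjusted p 0.0571), 0.64 for miR-199b-5p, 0.60 for miR-214-3p, 0.58 for miR-214-5p and 0.45 for miR-199a-5p, and edgeR called 22 miRNAs. That library and high-fat replicate 2 were also among the 3 libraries with the highest mean log2 CPM of the listed skeletal muscle markers (8.82 and 10.22). Without these 3 (the third being high-fat week 3 replicate 4, 8.86), edgeR called 31 of 561 miRNAs (5.53%), including 3 members. MiR-199a-3p then had 0.83, miR-214-3p 0.77 and miR-199b-5p 0.74 (adjusted p 0.0482 each), while miR-214-5p had 0.76 (adjusted p 0.0547) and miR-199a-5p 0.61 (0.0945). This choice leaves out the highest control and the lowest high-fat library of each arm, so it widens the difference by its construction.

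**Figure D2:**
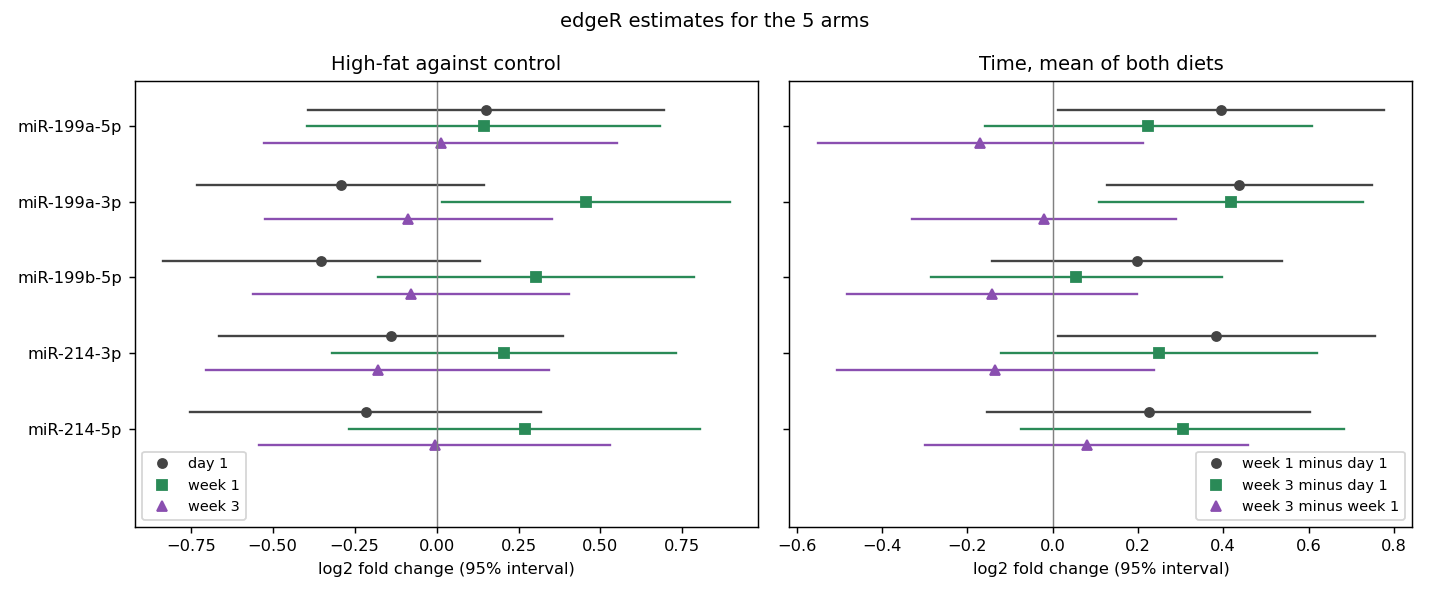
Log2 fold change and its 95% interval from edgeR for the 5 arms: high-fat against control at each time on the left, times against each other over both diets on the right. On the left only the week 1 interval of miR-199a-3p (0.02 to 0.89) lies clear of 0; on the right the intervals of miR-199a-3p for week 1 and week 3 against day 1 do, and those of miR-199a-5p and miR-214-3p for week 1 against day 1.

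Leukocyte markers lay on the other side of 0 from the members at week 1. Of 7 leukocyte markers, 6 had estimates below 0 (median −1.49), among them miR-142a-5p (−1.61 ± 0.73, SE) and miR-142a-3p (−1.62 ± 0.61), and none passed in edgeR. Their summed level ran from 8768 to 41988 CPM in the control libraries and from 3403 to 17077 CPM in the high-fat libraries, and no leukocyte marker was at 0. All 6 muscle markers tested and all 7 epithelial markers had estimates above 0 (medians 0.56 and 0.38), with none called. The summed muscle markers ran from 555 to 18763 CPM in controls and from 135 to 81000 CPM on the high-fat diet, with miR-208b-3p at 0 in some libraries of each group, and the summed epithelial markers from 12758.5 to 16416 and from 8761 to 39055.5 CPM. With the mean of the muscle markers as a covariate, every arm kept an estimate above 0 at week 1, and none passed in edgeR. The part of the leukocyte and epithelial markers in the week 1 values of the cluster was not tested.

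At week 3 no arm differed detectably between the diets. MiR-199a-3p had 14615, 14165, 14556 and 15953 CPM in control replicates 1 to 4 and 13096, 14199, 16842 and 11712 CPM on the high-fat diet. The control libraries lay inside the range of the high-fat libraries, and the log2 fold change was −0.09 ± 0.21 (SE). MiR-214-3p had −0.18 ± 0.25, miR-199b-5p −0.08 ± 0.23, miR-214-5p −0.01 ± 0.26 and miR-199a-5p 0.01 ± 0.26, each with an adjusted p of 0.999 in edgeR. The last 2 changed sign under other settings, as did miR-199a-3p and miR-199b-5p. No arm separated the diets, as 0.358% of the miRNAs did with the high-fat side higher and 0.717% with it lower. High-fat replicate 4, 1 of the libraries high in muscle markers, was the lowest of its group for miR-199a-3p, miR-199a-5p, miR-199b-5p (608 CPM) and miR-214-3p (462 CPM). Without it miR-214-3p had −0.03. EdgeR, DESeq2 and limma-voom called 0% of the 558, and 10 (1.79%) had an unadjusted p under 0.05 in edgeR.

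Over time, all 5 arms had estimates above 0 at week 1 and at week 3 against day 1, as means over the diets. None passed in edgeR with all libraries, and change over time within a single diet was not tested. The group means of miR-199a-3p were 11920 ± 1938 CPM (SD, n = 4) for control and 9728 ± 2268 CPM for high-fat at day 1. They were 12452 ± 3455 and 17077 ± 4918 CPM at week 1, and 14822 ± 780 and 13962 ± 2173 CPM at week 3. From day 1 to week 1, the control mean thus went from 11920 to 12452 CPM and the high-fat mean from 9728 to 17077 CPM. Estimates averaged over the diets join these unlike courses. In ascending order the groups were high-fat day 1, control day 1, control week 1, high-fat week 3, control week 3 and high-fat week 1, and each neighbouring pair differed by less than the larger of its 2 SDs. Averaged over the diets, the estimate of miR-199a-3p was 0.44 ± 0.15 (SE; adjusted p 0.112) at week 1 against day 1 and of 0.42 ± 0.15 (adjusted p 0.0789) at week 3 against day 1. With limma-voom the adjusted p were 0.0461 and 0.0321, past the threshold in fits that called 6.27% and 17.7% of the 558 miRNAs. In edgeR without the 3 libraries highest in muscle markers, miR-199a-3p at week 3 against day 1 had 0.46 (adjusted p 0.0262), where 9.27% of 561 were called, and at week 1 against day 1 it had 0.44 (adjusted p 0.0767). That choice leaves out the lowest week 3 library of miR-199a-3p (high-fat replicate 4) and no day 1 library, so it raises the week 3 estimate by its construction. Without control week 1 replicate 4 alone, the week 1 estimate fell from 0.44 to 0.29.

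The other arms had smaller estimates. MiR-214-3p had 0.38 ± 0.18 (SE) at week 1 and 0.25 ± 0.18 at week 3 against day 1, and miR-214-5p had 0.23 ± 0.18 and 0.30 ± 0.18. MiR-199a-5p had 0.39 ± 0.18 and 0.22 ± 0.18, and miR-199b-5p, reported to target Dyrk1a in the heart, had 0.20 ± 0.16 and 0.06 ± 0.16, the smallest of the 5 arms. In control libraries miR-199b-5p ran from 903 to 1159 CPM at day 1, 731 to 1473 at week 1 and 854 to 1283 at week 3. Control week 1 replicates 1 to 3 (731, 755.5 and 826 CPM) lay below every control day 1 library, against the sign of the mean over the diets. In high-fat libraries it ran from 619 to 902, 823 to 1481 and 608 to 1112 CPM. Without control week 1 replicate 4, the week 1 values were 0.15 for miR-214-3p, 0.04 for miR-214-5p, 0.21 for miR-199a-5p and −0.00042 for miR-199b-5p. Without control week 3 replicate 4, the week 3 values were 0.15 for both Mir214 arms and −0.08 for miR-199b-5p, and without high-fat day 1 replicate 3 that of miR-199a-5p was 0.12. The adjusted p in edgeR were 0.215 to 0.525 at week 1 and 0.278 to 0.857 at week 3. All 5 estimates were above 0 in both comparisons, with medians of 0.38 and 0.25 beside 0.08 and 0.05 over all tested. EdgeR called 0.896% of the 558 miRNAs at week 1 against day 1 (0.538% higher, 0.358% lower; 21.1% had an unadjusted p under 0.05), none of them a member. At week 3 against day 1 it called 7.17%, or 40 miRNAs (3.41% higher, 3.76% lower; 28% had an unadjusted p under 0.05), again none a member. Without control week 3 replicate 1 the 40 became 20. Week 3 against week 1 gave values from −0.17 to 0.08 for the 5 arms, with 0% of the 558 called by edgeR, 0 by DESeq2 or limma-voom, and 47 (8.42%) at an unadjusted p under 0.05 in edgeR.

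Ratios between the arms need no size factor, and none of the 20 tests passed after adjustment. The 12 tests of 4 against 4 libraries cannot go below p = 0.0286 (exact permutation), so a single one of them could not pass this adjustment whatever its values. The log2 ratio of miR-199b-5p to miR-199a-5p at day 1 had a mean of 5.42 ± 0.24 (SD, n = 4) in control libraries and 4.92 ± 0.09 in high-fat libraries. The difference was −0.51, with all high-fat libraries below all control libraries, at an exact two-sided permutation p of 0.0286 (adjusted p 0.338), the smallest that 4 against 4 allows. Over the 3 times it was −0.14 (exact stratified permutation p 0.211, adjusted p 0.469). The same miR-199b-5p counts gave the separated day 1 levels above, so these separations are not independent. No other of the 12 tests of 4 against 4 libraries separated the diets. The log2 ratio of miR-199a-5p to miR-199a-3p differed by 0.45 at day 1 and by −0.27 at week 1 (exact permutation p 0.0571 and 0.171). The ratio of miR-214-3p to miR-214-5p differed by 0.10, −0.02 and −0.21 at the 3 times (exact permutation p 0.686, 0.743 and 0.286), with signs at week 1 that turned when single libraries were left out. The ratio of miR-214-3p to miR-199a-5p differed by −0.13 between high-fat and control over the 3 times (exact stratified permutation p 0.0927, adjusted p 0.338).

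**Figure D3:**
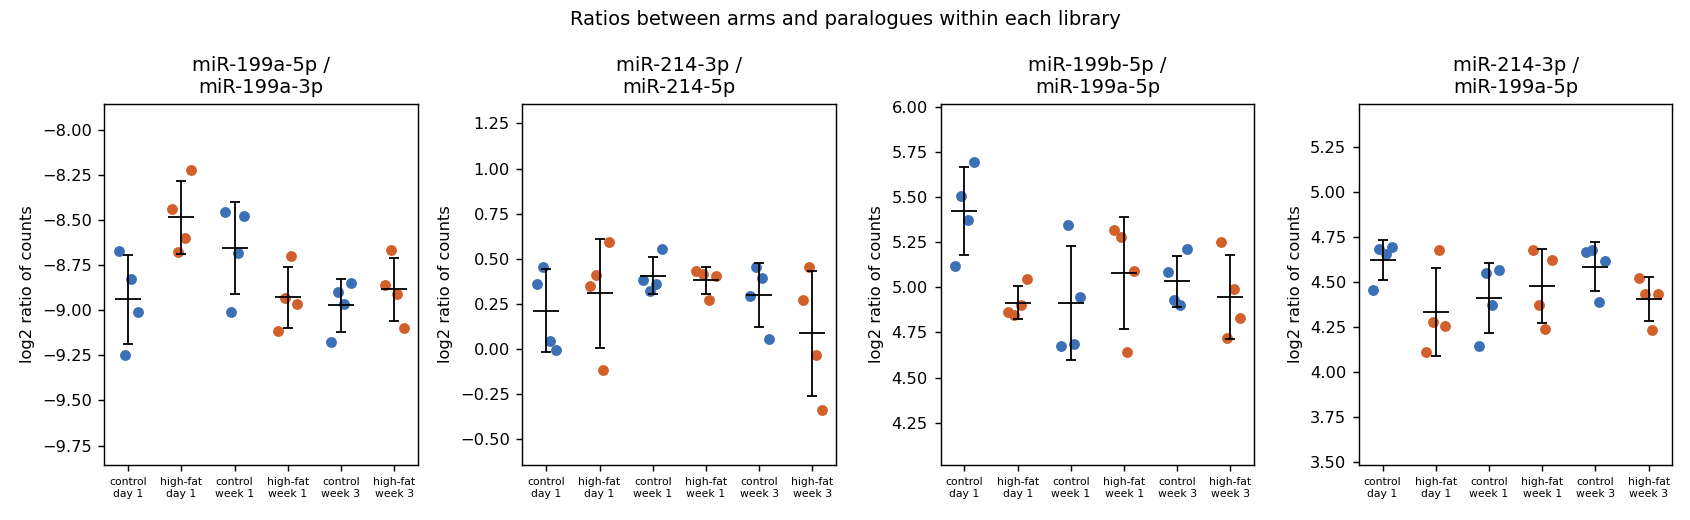
Log2 ratio of counts between 2 arms in each library, by diet and time; points are libraries (blue control, orange high-fat), black bars the mean ± SD of 4 libraries, and each panel spans 2 log2 units around the median of its own ratio. The ratio of miR-199b-5p to miR-199a-5p at day 1 separates the diets (5.42 against 4.92), and elsewhere the diets overlap at each time.

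Within the 24 libraries the 5 arms rose and fell together. The Pearson correlation of log2 CPM over 24 libraries was positive in all 10 pairs, from 0.61 between miR-199b-5p and miR-214-5p (permutation p 0.00176, adjusted p 0.00176) to 0.87 between miR-199a-5p and miR-214-3p (permutation p 1e-05, the smallest that 100000 resamples can give, adjusted p 2.5e-05). The Spearman correlations of these pairs were 0.62 and 0.83 (permutation p 0.00171 and 1e-05). Without the 2 libraries farthest from the median, the Pearson values were 0.46 (permutation p 0.0308) and 0.82. The hairpin on another chromosome was part of this: miR-199b-5p had 0.81 with miR-214-3p (permutation p 1e-05; Spearman 0.81, permutation p 2e-05; 0.71 without the 2 farthest libraries). The strands of Mir214 had 0.81 with each other (permutation p 1e-05; Spearman 0.70, permutation p 0.00019; 0.75 without the 2 farthest). Deviations from the 6 group means gave 0.60 to 0.89 over the 10 pairs. Outside the cluster, miR-455-3p had 0.83 and miR-345-5p 0.82 with miR-214-3p, so values of this size were not particular to the members. Both led a ranking of 553 other miRNAs by their mean correlation with the members. All arms share the library and its size factor, and miR-199a-5p rests on 54 to 771 counts per library.

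**Figure D4:**
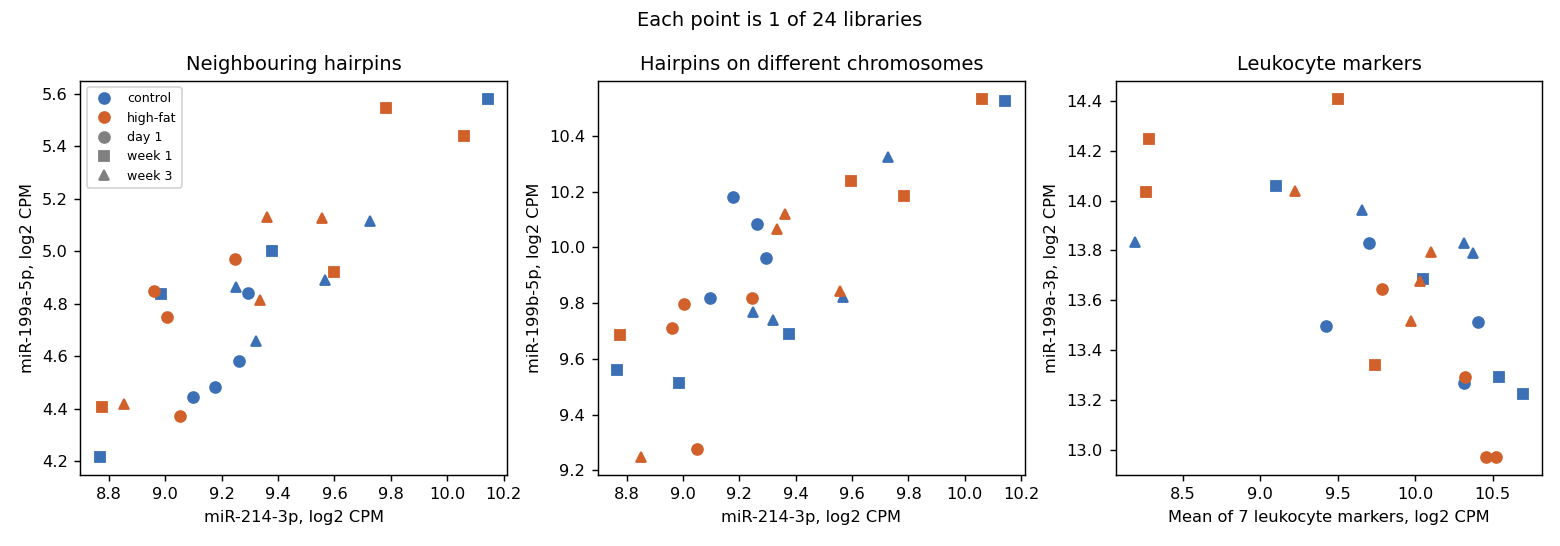
Log2 CPM in 24 libraries: miR-199a-5p against miR-214-3p (r = 0.87), miR-199b-5p against miR-214-3p (r = 0.81) and miR-199a-3p against the mean of 7 leukocyte markers (r = −0.68); colour gives the diet and shape the time. Week 1 libraries hold the lowest and the highest values of miR-214-3p (436 and 1131 CPM).

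The arms were less variable within groups than most miRNAs. The pooled SD of log2 CPM within groups was 0.31 for miR-199a-3p, 0.33 for miR-199b-5p, 0.37 for miR-199a-5p and miR-214-3p and 0.38 for miR-214-5p, beside a median of 0.44 over the 558. Between 25.4% and 39.4% of tested miRNAs had a smaller SD than one of these arms. The arms ranked 15 to 282 of 558 by mean CPM, and the comparison was not matched for abundance.

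Over the 24 libraries, the members ran against the leukocyte markers and showed no detectable relation to library depth or to the muscle markers, among 15 relations computed. With the mean log2 CPM of the leukocyte markers over 24 libraries, miR-199a-3p had r = −0.68 (permutation p 0.00027, adjusted p 0.00405; Spearman −0.77, permutation p 4e-05, adjusted p 0.0006). Without the 2 farthest libraries r was −0.73, and for deviations from the group means it was −0.54. For miR-199b-5p, miR-214-3p and miR-214-5p r was −0.54, −0.53 and −0.51 (permutation p 0.0062, 0.0076 and 0.0106, adjusted p 0.038, 0.038 and 0.0399; Spearman −0.63, −0.58 and −0.56, permutation p 0.00128, 0.00345 and 0.00487). For miR-199a-5p r was −0.44 (permutation p 0.0325, adjusted p 0.0976; Spearman −0.44, permutation p 0.0345). Without the 2 farthest libraries these 4 values were −0.66, −0.60, −0.63 and −0.62, and for deviations from the group means they were −0.42, −0.40, −0.43 and −0.35. With log10 total count, r was 0.13 to 0.18, and with the muscle mean it was −0.10 to 0.10 (adjusted permutation p 0.748 to 0.907). The Spearman values were −0.19 to 0.13 (adjusted permutation p 0.945 to 0.976), and r without the 2 farthest libraries was −0.31 to −0.05. For deviations from the group means, r was 0.30 to 0.34 with log10 total count and −0.35 to −0.14 with the muscle mean. These deviations were not tested. The permutations ran over all 24 libraries without regard to group, so their p-values mix differences between groups with those between libraries.

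The miRNAs outside the cluster whose levels were most like it were ranked by the mean of their 5 Pearson correlations with the members over 24 libraries, as a description. Of 553, the first were miR-455-3p (0.70), known from brown fat and cartilage, miR-345-5p (0.70), miR-574-3p (0.69), let-7e-5p (0.67), miR-125b-2-3p (0.67) and miR-200a-3p of epithelium (0.67). The least alike were miR-191-5p (−0.72), miR-15b-3p (−0.65) and miR-361-5p (−0.63). The median over the 553 was 0.04. The 10 other miRNAs listed as enriched in fibroblasts and mesenchyme had a median of 0.38, from −0.22 to 0.61 (miR-411-5p). The 7 epithelial markers had 0.46, from 0.01 to 0.67. Medians were 0.24 for 6 adipocyte miRNAs, 0.11 for 4 of smooth muscle and pericytes, 0.23 for 4 of erythrocytes, 0.03 for 6 tested of skeletal muscle and −0.50 for 7 of leukocytes. The 9 miRNAs linked to extracellular matrix and fibrosis had −0.22, and endothelial miR-126a-3p, the 1 of 2 listed arms that was tested, had 0.28.

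The fibroblast-linked list had no member past the threshold in any comparison in edgeR. At week 1, 9 of 10 had estimates above 0 on the high-fat diet (median 0.22), with miR-10b-5p of the Hox clusters at −0.08 ± 0.18 (SE), miR-100-5p at 0.10 ± 0.17 and miR-22-3p at 0.23 ± 0.25. All 9 of the matrix and fibrosis list had estimates below 0 (median −0.26). There, miR-21a-5p, known from fibrosis and inflammation, had −0.26 ± 0.18, miR-29a-3p, known to repress collagens, −0.27 ± 0.19 and miR-192-5p −0.41 ± 0.17. None of these passed. The 6 adipocyte miRNAs ran from −0.27 to 0.76 at week 1 (median −0.04), with miR-378a-3p at −0.27 ± 0.23, miR-148a-3p at −0.01 ± 0.24 and miR-335-5p, named here as the extreme of its list, at 0.76 ± 0.42. Of the vessel miRNAs, miR-143-3p was at −0.18 ± 0.23, miR-145a-5p at −0.02 ± 0.18 and miR-126a-3p at 0.04 ± 0.15. From day 1 to week 3, 3 listed miRNAs outside the cluster rose in edgeR. These were miR-143-5p of smooth muscle (0.67 ± 0.13, adjusted p 0.00502), miR-126a-3p (0.36 ± 0.11, adjusted p 0.0473) and erythrocyte miR-144-3p (0.78 ± 0.24, adjusted p 0.0478). Over all 558 tested, 3.41% were called higher. Of the 4 smooth muscle and pericyte miRNAs, 1 had an estimate above 0 and 3 below (median −0.08), while all 4 of erythrocytes were above 0.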

How the data were processed

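The authors deposited whole-number read counts for 1907 mature miRNA names in 24 libraries, from NEBNext small RNA libraries of TRIzol-purified RNA, per the labels' protocols. FastQC, Trim Galore, Bowtie2, featureCounts and build mm10 are named in the submitters' processing notes. No version, setting, strand use or treatment of multi-mapping reads is given in the sources used here. Totals ran from 1992607 to 16299177 counts, so that 3 counts equal 1.51 CPM in the shallowest library. The binomial intervals of count shares cover counting error only, and no molecular identifiers are mentioned. The intervals of fold changes also hold the spread between libraries.

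Groups and replicate numbers came from the sample titles. The filter filterByExpr (minimum count 10, minimum total 15) kept 558 names. The names left out held 0.0179% of counts. Contrasts were fitted in 1 cell-means model of 6 groups with edgeR 4.0.16 in R 4.3.3 (TMM, robust quasi-likelihood test, Benjamini-Hochberg adjusted p under 0.05). DESeq2 1.42.0 and limma 3.58.1 were alternatives. Tests on simulated counts for high-fat against control at week 1 (543 miRNAs) recovered 89.7% of 4-fold and 54.1% of 2-fold changes (log2 sizes 2 and 1), with 1.72% of unchanged miRNAs called. Changes were put into 97 miRNAs at 4-fold and 98 at 2-fold, with 1 spread per miRNA shared by all groups. Where fewer miRNAs change, the adjustment is stricter, so these shares can exceed those in the real libraries. Log2 ratios used a pseudocount of 0.5 and exact permutation tests. Correlations used 100000 resamples over all 24 libraries, without regard to group.

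Members, marker lists and tests were chosen with earlier results of these data known. Named miRNAs were the members, miR-199b-3p, the 6 most and 3 least alike in pattern, the 2 most abundant of each list (3 for the fibroblast and fibrosis lists) and called list members, of which the text gives a selection. A few others are named as list extremes.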

Additional observations from a re-analysis of the deposited data

Results flagged for a closer look

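Of 54 sets of 4 libraries checked (5 levels and 4 ratios in 6 groups), 3 held a library whose distance from the nearest other exceeded 0.829 of the whole range, Dixon's 95% limit. Chance gives this in about 1 in 20 sets. MiR-199b-5p was high in control week 3 replicate 4, at 10.33 log2 CPM against 9.74 to 9.82 in the others. The log2 ratio of miR-214-3p to miR-214-5p was low in high-fat week 1 replicate 3, at 0.27 against 0.41 to 0.43. The log2 ratio of miR-214-3p to miR-199a-5p was low in control day 1 replicate 1, at 4.45 against 4.65 to 4.69.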

How the results depend on the processing

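Correlations between arms kept their sign and their side of the threshold under all 40 alternatives run. Of fold changes under settings other than leaving out 1 library, 313 kept both, 6 became significant and 31 changed sign, and the ratios gave 57 and 3 for kept and changed sign. For high-fat against control at week 1, limma-voom called 19 miRNAs and the fit without the 3 libraries highest in muscle markers 31, beside 0, and leaving out 1 library gave 0 to 22 (22 without control replicate 4). For the mean of 3 times, leaving out 1 library gave 0 to 2. For week 1 against day 1, the 5 calls became 2 with RLE size factors, 10 with TMM lacking the 5 most abundant miRNAs, 8 with a mean CPM of at least 10, 37 with DESeq2, 35 with limma-voom, 10 with a replicate block, 0 with the muscle mean as a covariate, 0 without the 3 muscle-high libraries, and 2 to 12 with 1 library left out. For week 3 against day 1, the 40 calls became 19 with no filter, 71 with DESeq2, 99 with limma-voom and 20 to 46 with 1 library left out. The cause was not tested.

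Estimates near 0 changed sign. At week 3, high-fat against control, miR-199a-5p had −0.050 with library totals and −0.068 with limma-voom, and miR-199a-3p and miR-199b-5p had 0.012 and 0.022 with a mean CPM of at least 10, the latter 0.081 without the muscle-high libraries. MiR-214-5p there had 0.041 with RLE, 0.047 without the 5 most abundant, 0.034 with no filter, 0.094 with the CPM filter, 0.041 with DESeq2, 0.011 with limma-voom, 0.0073 with the replicate block and 0.039 with the muscle covariate. Over the 3 times, miR-199b-5p had 0.016 (CPM filter), 0.028 (limma-voom) and 0.16 (without muscle-high libraries), and miR-214-3p had 0.016, 0.023 and 0.19. MiR-214-5p had −0.0024 with no filter and −0.014 with the muscle covariate. For week 3 against day 1, miR-199b-5p had −0.0014 with library totals, −0.011 without the 5 most abundant and −0.0014 with limma-voom. For week 3 against week 1, miR-199a-3p had 0.0043 with RLE, 0.0059 without the 5 most abundant, 0.0077 with the CPM filter, 0.0044 with DESeq2 and 0.025 without the muscle-high libraries, where miR-199b-5p had 0.018 and miR-214-3p 0.0051. Without them the log2 ratio of miR-214-3p to miR-214-5p was 0.013 at week 1, 0.013 over the 3 times and 0.0035 for week 3 against day 1. The cause was not tested.

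With 1 library left out, high-fat against control at week 3 ranged from −0.034 to 0.17 for miR-199a-5p, −0.13 to 0.016 for miR-199a-3p, −0.13 to 0.13 for miR-199b-5p and −0.099 to 0.24 for miR-214-5p. Over the 3 times the ranges were −0.0062 to 0.11 for miR-199a-3p, −0.059 to 0.077 for miR-199b-5p, −0.074 to 0.098 for miR-214-3p and −0.019 to 0.13 for miR-214-5p. For miR-199b-5p they were −0.00042 to 0.20 for week 1 and −0.078 to 0.083 for week 3 against day 1. For week 3 against week 1 they were −0.071 to 0.10 for miR-199a-3p, −0.21 to 0.032 for miR-199b-5p, −0.20 to 0.070 for miR-214-3p and −0.0042 to 0.25 for miR-214-5p. The log2 ratio of miR-214-3p to miR-214-5p ranged from −0.052 to 0.025 at week 1, −0.088 to 0.00025 over the 3 times and −0.14 to 0.0035 for week 3 against day 1. That of miR-214-3p to miR-199a-5p ranged from −0.020 to 0.15 at week 1 and −0.018 to 0.077 for week 3 against day 1.

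The replicate numbers were not taken as pairs, since the labels give them no meaning and not every pair deviated together: of 12 pairs of same-numbered control and high-fat libraries, 7 had a correlation of deviations over 0.1 (−0.51 to 0.42), and 6 correlated best with their own number. The replicate block changed no call for a member. Depth limits miR-199a-5p most (54 to 771 counts), and miR-199b-3p, at 2 to 19 counts, supports no comparison.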
